A study of Sus scrofa with 6 samples.

Results

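The genes described here encode the proteasome and the proteins that load its peptides onto major histocompatibility complex (MHC) class I. They were measured in pig blood monocytes. A gene belonged to the set if its symbol in the array's annotation began with PSMA to PSMG and a number, or with SLA- and a number, or was B2M, TAP1, TAP2, TAPBP, CALR, CANX or PDIA3. This gave 59 of the 13755 genes with a symbol, measured by 130 of 47722 probe sets. CALR and CANX, 2 chaperones of class I folding, had no probe set under their symbols, nor did the subunit genes PSMA1, PSMB10, PSMC3 and PSMD13. One of the 59, PSMC3IP, matched the pattern by its name alone and encodes a recombination protein, which leaves 44 proteasome genes, 9 class I heavy chain genes and 5 genes of the light chain, peptide transport and loading.

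Peripheral blood mononuclear cells came from 3 Large White Landrace F1 piglets 8 weeks of age, were frozen and thawed, and were sorted on surface CD14 and CD163. The CD163high group is the CD14low-CD163high population and the CD163low group the CD14high-CD163low population, both from untreated animals, with 3 arrays each, 1 per pig and population. Each pig gave both populations, so the pig is the replicate. The question was how gene expression differs between these populations.

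The proteasome is a barrel of alpha and beta rings that cuts proteins into peptides, with a regulatory cap that recognises and unfolds ubiquitin-tagged substrates. Under interferon the catalytic beta subunits are exchanged for inducible ones, which makes the immunoproteasome, and the activator PA28 can replace the regulatory cap. The peptides are carried into the endoplasmic reticulum by the transporter TAP and bound there by a class I heavy chain and its light chain, beta-2-microglobulin. In monocytes this route presents fragments of cytosolic proteins, such as those of viruses, to cytotoxic T cells.

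Values are log2 signals of the brightest probe set of a gene, and differences are CD163high minus CD163low with the standard error (SE) of the limma fit. Group means are given ± SD over n = 3 arrays, and the small number of arrays limits every value. None of the 59 members passed limma's test over the whole array, and all of them had a limma adjusted p of 1. Across the array 0 of 47722 probe sets passed (0%), and 1235 (2.59%) had an unadjusted limma p under 0.05. The 69 background control probe sets had a mean log2 signal of 2.60 to 3.67 on the 6 arrays, and 53 of the 59 members lay above that mean on every array. The other 6 were PSMB5 and PSMA8, below it on all arrays, PSMG2, below it on 3, and PSMA2, PSMG1 and PSMD10, below it on 1. CD163 itself had a log2 difference of 2.03 ± 0.43 (SE) and CD14 of -1.07 ± 0.47, both in the direction of the sort in all 3 pigs. In these bulk samples fewer cells of a type and less RNA per cell cannot be told apart.

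Most proteasome genes had higher values in CD163high than in CD163low monocytes in pigs 1 and 2, whereas in pig 3 more of them were lower than higher. Of the 44 proteasome genes 39 (88.6%) were higher in CD163high of pig 1, 35 (79.5%) in pig 2 and 19 (43.2%) in pig 3. Over all genes these shares were 42.0, 52.8 and 51.3%. Among the 6877 genes brighter than the median gene they were 53.3, 56.6 and 40.4%. The medians of the log2 differences of the proteasome genes were 1.18, 0.41 and -0.093 in the 3 pigs, against -0.12, 0.024 and 0.013 over all genes. The 6877 genes brighter than the median gene, nearer to the proteasome genes in signal, had medians of 0.10, 0.072 and -0.15, which have the same signs in each pig. The median fitted log2 difference of the proteasome genes was 0.47, with 39 positive and 5 negative values, and over all 13755 genes the median was -0.013. In all 3 pigs 14 of the 44 were higher, a share of 31.8% where 10.5% of all genes and 11.9% of the brighter 6877 were, and 0 were lower, where 12.5% of all genes were. Proteasome subunits work in 1 complex and are not independent of each other, so these counts describe the genes and are no test.

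**Figure D1:**
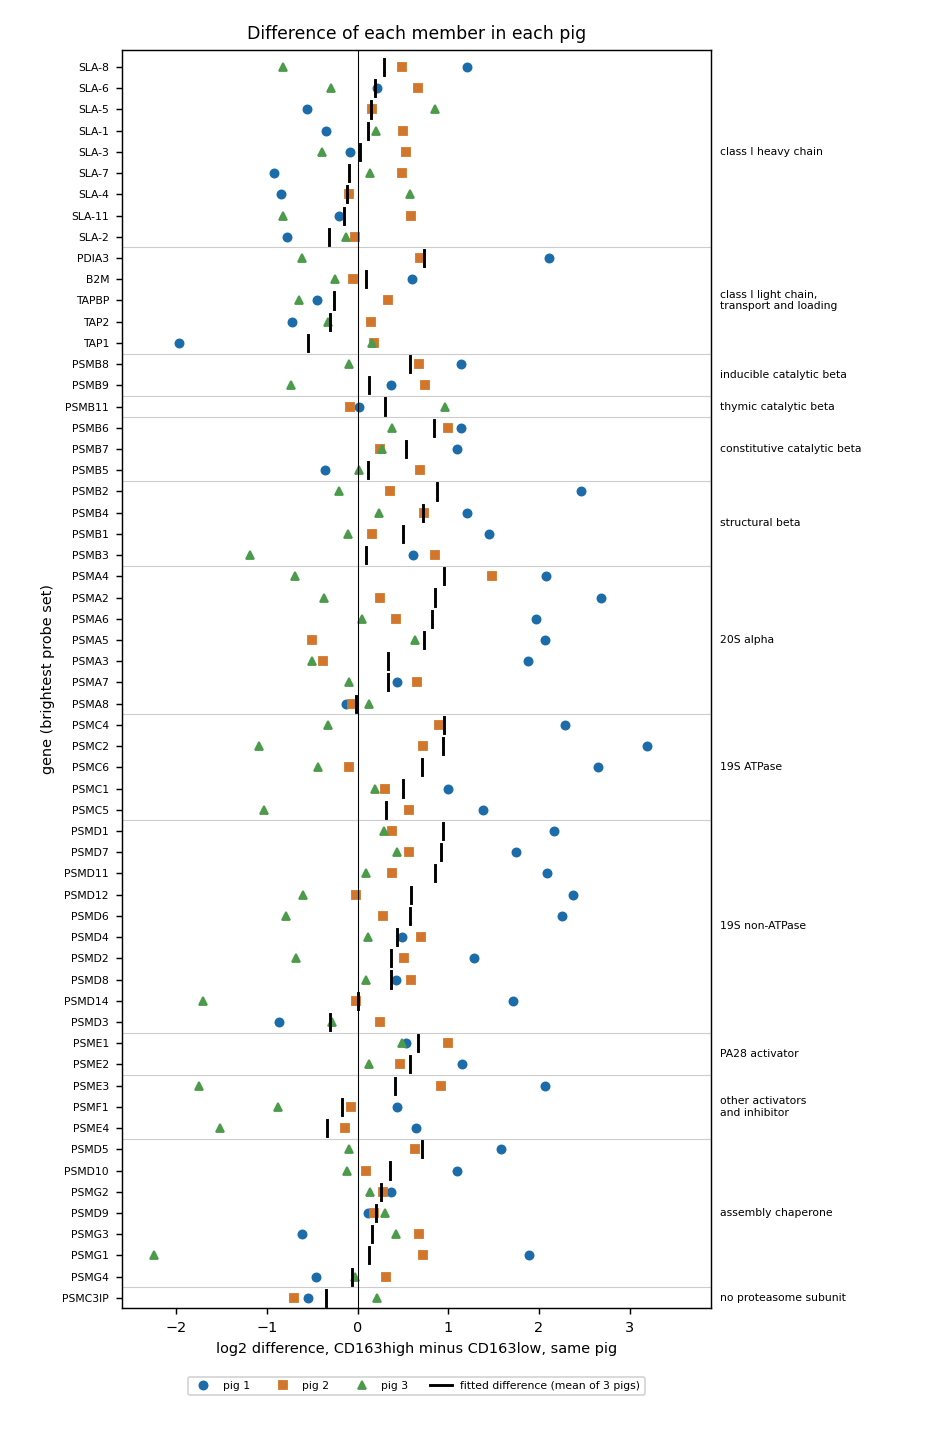
Log2 difference between CD163high and CD163low monocytes of the same pig (x axis) for each of the 59 members (y axis), grouped by role. Symbols are the 3 pigs and the black bar is the fitted difference. Most proteasome genes lie right of 0 in pig 1, and in pig 3 25 of 44 lie left of it, while the class I heavy chains lie on both sides.

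The arrays differed in proteasome signal in a way that did not follow the 2 populations. For CD163high cells of pigs 1, 2 and 3 the median log2 signal of the 44 genes was 7.30, 7.06 and 5.59, and for CD163low cells it was 5.61, 6.88 and 6.08. It was high on CD163high of pig 1 and both arrays of pig 2, low on CD163low of pig 1 and both arrays of pig 3, and the 2 groups overlapped. Over all probe sets the first principal component, with 55.2% of the variance, placed the same arrays at -41.5, -80.6 and 97.2 in CD163high and at 88.3, -92.3 and 28.9 in CD163low cells. On CD163high of pig 3, 676 probe sets lay above every background control, against 2327 to 6700 on the other arrays. On that array 6 members lay under the background mean, against 2 or 3 on the others. The background controls differed between the 2 arrays of a pig by -0.47, 0.37 and 0.60 in pigs 1, 2 and 3. Thus the proteasome difference was largest in the pig whose CD163high array had the lower background of the pair, and in pigs 2 and 3 that array had the higher background. Whether array background has a part in the proteasome difference was not tested. Over the 59 members the median was 0.33, with the background signal as a covariate 0.44, and from the 4 arrays of lowest background 0.54. Those 4 were CD163high of pigs 1 and 2 and CD163low of pigs 2 and 3. Only pig 2 had both populations among them, so background and pig cannot be told apart there.

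**Figure D2:**
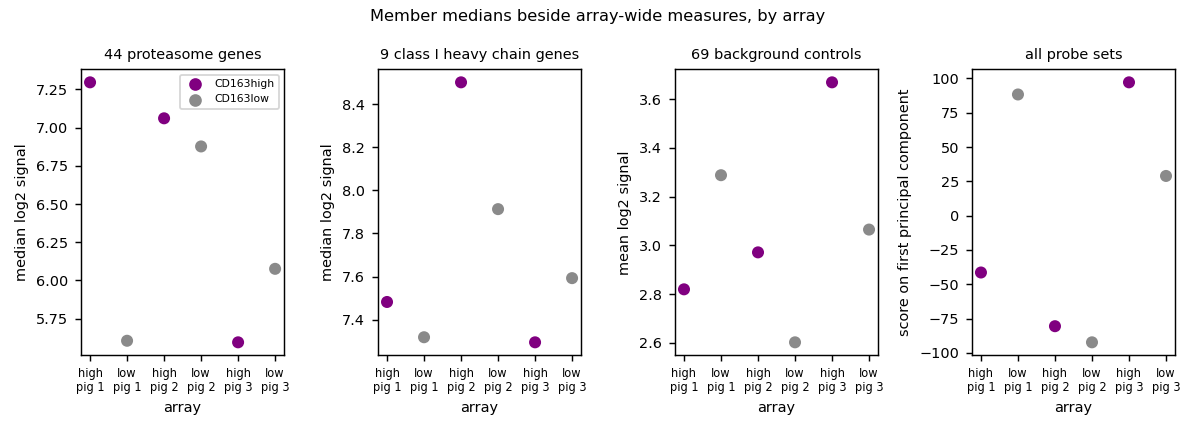
Medians of the 44 proteasome genes and the 9 class I heavy chain genes, the mean of the 69 background controls and the score on the first principal component (y axes) for each of the 6 arrays (x axes), coloured by population. The proteasome medians run from 5.59 to 7.30 and do not separate the populations, and the 2 arrays with the highest background, CD163high of pig 3 and CD163low of pig 1, have the lowest proteasome medians.

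Single pigs and arrays decided the size of the shift. The median over the 59 members was 0.077 without pig 1, 0.25 without pig 2 and 0.67 without pig 3. Leaving out 1 array, it was 0.72 when that was CD163high of pig 3, 0.20 for CD163high of pig 1, and 0.21 for either CD163low of pig 1 or CD163high of pig 2. Proteasome genes also varied more between arrays than most genes. Their range of log2 signal over the 6 arrays had a median of 1.81, against 1.03 for all genes. For all 59 members it was 1.62, and for the class I heavy chains 1.30. Among the 6877 genes brighter than the median gene it was 1.36.

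Among the constitutive catalytic subunits PSMB6 had the smallest p of all members. It encodes the beta subunit with caspase-like activity, the one that PSMB9 replaces in the immunoproteasome. PSMB6 had log2 signals of 6.69, 6.47 and 6.16 in CD163high and 5.55, 5.48 and 5.78 in CD163low cells of pigs 1, 2 and 3. The 2 groups did not overlap, and each pig had the higher value in CD163high cells. Its means were 6.44 ± 0.27 and 5.60 ± 0.16, a log2 difference of 0.84 ± 0.20 (SE) or 1.79-fold (limma adjusted p = 1). Its unadjusted limma p stayed under 0.05 when any single array was left out, but not without pig 1 or without pig 2. PSMB7, which encodes the subunit with trypsin-like activity, had 8.10, 8.07 and 6.44 in CD163high and 7.00, 7.82 and 6.17 in CD163low cells. It was higher in CD163high cells of every pig, by 1.10, 0.25 and 0.27, but the pigs differed so much that the groups overlapped (log2 difference 0.54 ± 0.60). PSMB5, the subunit with chymotrypsin-like activity, was not measured above background: its brighter probe set had 2.11, 2.96 and 2.49 in CD163high and 2.48, 2.27 and 2.47 in CD163low cells. That probe set is named for a microRNA and is assigned to PSMB5 by the annotation, and the other PSMB5 probe set was also under the mean of the controls.

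The inducible subunits PSMB8 and PSMB9 were higher in CD163high monocytes of pigs 1 and 2 and lower in those of pig 3. PSMB8, the inducible counterpart of PSMB5, had log2 signals of 10.30, 10.24 and 8.15 in CD163high and 9.16, 9.57 and 8.24 in CD163low cells. PSMB9 had 8.41, 8.25 and 6.56 in CD163high and 8.04, 7.51 and 7.29 in CD163low cells. For both genes CD163high of pig 3 was the lowest of the 6 arrays and the groups overlapped, with log2 differences of 0.58 ± 0.66 for PSMB8 and 0.13 ± 0.53 for PSMB9. In CD163high cells the log2 ratio of PSMB9 to PSMB6 on the same array was 1.73, 1.77 and 0.40, and in CD163low cells it was 2.49, 2.03 and 1.51. It was lower in CD163high cells of every pig, by 0.77, 0.26 and 1.11, and the groups overlapped (difference -0.71, exact permutation test, two-sided p = 0.3, smallest possible p = 0.1). These values are for the brightest PSMB9 probe set. In pig 1 the other PSMB9 probe sets had differences of 2.78, 0.83 and 1.37, against 1.14 for PSMB6. In pig 3 they had -1.30, -0.51 and 1.39, against 0.38. The direction of the ratio in these pigs thus depended on the probe set. With all PSMB9 probe sets averaged the difference was -0.22. Over the 4 arrays of lowest background, where only pig 2 had both populations, it was -0.023. PSMB11, the thymus-specific catalytic subunit, lay between 3.44 and 4.57 on the 6 arrays.

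Both members of the PA28 activator had higher values on every CD163high array than on any CD163low array. PSME1 encodes its alpha and PSME2 its beta subunit, and both are known to be induced by interferon gamma. PSME1 had log2 signals of 8.61, 9.12 and 8.45 in CD163high and 8.07, 8.13 and 7.96 in CD163low cells. Its means were 8.72 ± 0.35 and 8.05 ± 0.08, a log2 difference of 0.67 ± 0.22 or 1.59-fold (limma adjusted p = 1). PSME2 had 7.77, 7.01 and 6.85 in CD163high and 6.62, 6.53 and 6.72 in CD163low cells, a log2 difference of 0.58 ± 0.27 (limma adjusted p = 1). The gap between the groups was narrow for PSME2, where CD163high of pig 3 lay 0.12 above CD163low of the same pig. A second PSME1 probe set had differences of -0.21, -0.10 and 0.97 in the 3 pigs, so the PSME1 result rests on the brighter one. The other activators and the inhibitor had no common direction. PSME3, the nuclear PA28 gamma, had 7.51, 8.47 and 5.02 in CD163high and 5.44, 7.55 and 6.76 in CD163low cells. PSME4, the activator PA200, had 6.95, 6.95 and 4.92 against 6.31, 7.09 and 6.44. PSMF1, which encodes the inhibitor PI31, had 6.98, 7.00 and 6.50 against 6.55, 7.07 and 7.37. All 3 were higher in CD163high cells of pig 1 and lower in those of pig 3.

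**Figure D3:**
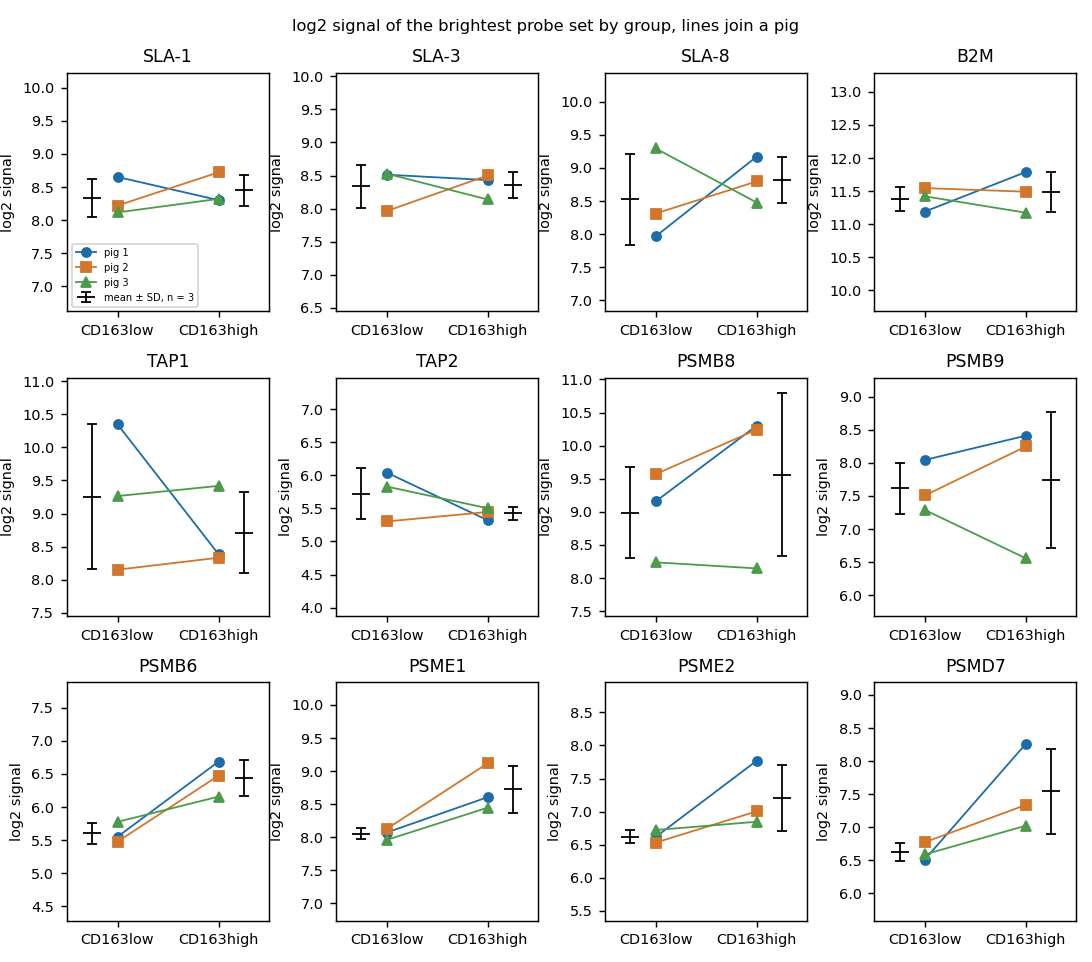
Log2 signal (y axes) of 12 members in CD163low and CD163high monocytes (x axes), with lines joining the 2 arrays of a pig and black bars for the group mean ± SD (n = 3). All panels span the same height on the y axis. PSMB6, PSME1, PSME2 and PSMD7 are higher in CD163high cells of all 3 pigs with no overlap of groups, whereas SLA-1, SLA-3 and B2M have mean differences of 0.12, 0.022 and 0.099 and the lines of TAP1 and SLA-8 cross.

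The regulatory particle had the same division between pigs as the core. Of its 15 measured subunits 14 (93.3%) were higher in CD163high cells of pig 1, 12 (80%) in pig 2 and 6 (40%) in pig 3. These shares were 42.0, 52.8 and 51.3% of all genes, and 53.3, 56.6 and 40.4% of the brighter 6877 genes. The median log2 difference of the 15 subunits was 0.58, and without pig 1 it was -0.019. For the ATPases among them it was 0.71, and -0.18 without pig 1. PSMD7, the partner of the deubiquitinase PSMD14 in the lid, had 8.26, 7.34 and 7.02 in CD163high and 6.51, 6.77 and 6.59 in CD163low cells. The groups did not overlap, and the log2 difference was 0.92 ± 0.34 or 1.89-fold (limma adjusted p = 1). A dimmer PSMD7 probe set had differences of 1.43, 0.46 and 0.030 in the 3 pigs. PSMD4, a ubiquitin receptor, had 5.06, 4.73 and 4.57 against 4.56, 4.03 and 4.46, a log2 difference of 0.44 ± 0.23. PSMD8, a lid subunit, had 5.61, 5.51 and 5.22 against 5.18, 4.92 and 5.12, a log2 difference of 0.37 ± 0.18. For these 2 genes the groups also did not overlap, with gaps that were small beside the spread within CD163high cells.

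The ATPases unfold substrates and feed them into the core. PSMC2 had the widest split between pigs of this group, with log2 differences of 3.20, 0.72 and -1.08 in pigs 1, 2 and 3. PSMC4 had 6.39, 6.74 and 5.39 in CD163high and 4.10, 5.84 and 5.71 in CD163low cells, with a log2 difference of 0.96 ± 0.57. PSMC6 had 8.11, 7.12 and 6.21 against 5.45, 7.21 and 6.65. PSMC1 was the steadiest, with 7.27, 7.30 and 7.48 against 6.28, 6.99 and 7.28, higher in CD163high cells of all 3 pigs by 1.00, 0.30 and 0.20. Of the remaining regulatory subunits PSMC5 had a fitted log2 difference of 0.31, PSMD1, a scaffold of the base, 0.94, PSMD2 0.37, PSMD6 0.58, PSMD11 0.86 and PSMD12 0.59. PSMD14, the deubiquitinase, had differences of 1.72, -0.015 and -1.70 in the 3 pigs, which cancelled to 0.00033. PSMD3 alone had a negative fitted difference in the regulatory particle, at -0.30.

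Of the 7 alpha subunits 6 were higher in CD163high cells of pig 1, as were all 4 structural beta subunits, and both groups were mixed in pig 3. In pig 1 the share was 42.0% of all genes and 53.3% of the brighter 6877 genes. PSMA6 had 10.31, 9.46 and 8.52 in CD163high and 8.35, 9.03 and 8.47 in CD163low cells, a log2 difference of 0.82 ± 0.47. PSMA5 had 8.56, 7.00 and 6.94 against 6.49, 7.50 and 6.31, with pig 2 in the opposite direction to pigs 1 and 3. PSMA7 had 8.38, 8.71 and 8.50 against 7.94, 8.05 and 8.59. For all 3 the groups overlapped. The fitted differences of PSMA2, PSMA3 and PSMA4 were 0.86, 0.33 and 0.96, and PSMA8, a testis form of an alpha subunit, stayed between 1.63 and 1.87 on every array. PSMB4 was the structural beta subunit with the most even shift, at 9.61, 9.70 and 8.32 in CD163high and 8.41, 8.97 and 8.08 in CD163low cells, higher in every pig (log2 difference 0.72 ± 0.44). PSMB2 had 8.67, 7.72 and 6.98 against 6.20, 7.36 and 7.19, and PSMB1 had 7.10, 5.76 and 5.62 against 5.66, 5.60 and 5.72. The brightest probe set of PSMB3 had a log2 difference of 0.093 ± 0.45. Over the 13 core genes other than the inducible and tissue-specific ones all brightest probe sets had positive fitted differences, with a median of 0.72. Only 4 of the 13 had the same sign in every pig, all higher in CD163high cells. Of all genes 10.5% were higher and 12.5% lower in all 3 pigs. Of the 13 core genes 11 lay above the background mean on every array. PSMB5 (0.11) lay under it on all arrays. Other probe sets reached -1.10 for PSMB3, -0.22 for PSMB5, -0.11 for PSMA5 and -0.073 for PSMA6. Of these, the PSMB3 probe set alone lay above background on every array. All probe sets of PSMB1, PSMB2, PSMA4 and PSMA7 were positive.

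Assembly chaperones, which build the rings and the base of the cap, had a median log2 difference of 0.20 over 7 genes. PSMD5 had 5.56, 4.95 and 3.84 in CD163high and 3.98, 4.31 and 3.94 in CD163low cells. PSMG2, at 2.90, 3.08 and 2.96 against 2.53, 2.80 and 2.83, had groups that did not overlap, but at the level of the background controls. PSMD9 had 4.84, 5.28 and 4.76 against 4.72, 5.11 and 4.46. PSMG1 spanned the widest range of all members, 4.11 on the log2 scale over the 6 arrays, with differences of 1.89, 0.72 and -2.25 in the 3 pigs. Its lowest value, 3.39 on CD163high of pig 3, lay under the background mean of that array, 3.67. The fitted differences of PSMG3, PSMG4 and PSMD10 were 0.16, -0.060 and 0.36. PSMC3IP, the member that is no proteasome subunit, had -0.34.

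Counting over all members, 7 had groups that did not overlap with CD163high above CD163low, against 3.02% of all genes, and 0 had CD163high below, against 3.16%. These 7 were PSMB6, PSMD4, PSMD7, PSMD8, PSME1, PSME2 and PSMG2, all proteasome genes or their chaperones. Of the members 3 had an unadjusted limma p under 0.05, where 3.27% of all genes did. They were PSMB6, PSMD7 and PSME1, all in the positive direction, against 1.84% of all genes, and 0 members were in the negative direction, against 1.43%. That count of 3 became 0 without pig 1 (1.62% of all probe sets) or pig 2 (3.22%) and 9 without pig 3 (2.58%). It became 19, 18 higher and 1 lower, when the CD163high array of pig 3 alone was omitted, where 5.03% of all probe sets reached it. For the CD163low array of pig 2 it became 5, 3 higher and 2 lower (TAP2 and TAPBP), against 4.61% of all probe sets. For the CD163low array of pig 3 the count was 1, against 1.64%. With trended and robust variance it was 0 as well, against 2.35% of all probe sets.

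Class I heavy chain genes had no common direction. The contrast with the core proteasome lay mainly in pig 1. There 92.3% of the 13 core genes and 22.2% of the 9 heavy chain genes were higher in CD163high cells. In pigs 2 and 3 the shares were 84.6 and 46.2% of the core genes, against 77.8 and 44.4% of the heavy chain genes. The difference between the 2 sets of genes was not tested. The 9 genes had a median log2 difference of 0.022, with 5 positive and 4 negative values, from -0.31 to 0.29. Of the 9, 2 (22.2%) were higher in CD163high cells of pig 1, 7 (77.8%) in pig 2 and 4 (44.4%) in pig 3. These shares were 42.0, 52.8 and 51.3% of all genes, and 53.3, 56.6 and 40.4% of the brighter 6877 genes. SLA-2 alone had 1 direction, lower in all 3 pigs, as were 12.5% of all genes. Class I heavy chain genes are closely alike in sequence and vary between animals, so a probe set of one may also take signal from another.

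The classical chains SLA-1, SLA-2 and SLA-3 present peptides to T cells. SLA-1 had log2 signals of 8.30, 8.72 and 8.32 in CD163high and 8.65, 8.22 and 8.12 in CD163low cells, a log2 difference of 0.12 ± 0.22. SLA-3 had 8.43, 8.50 and 8.14 against 8.51, 7.96 and 8.53, a difference of 0.022 ± 0.23. That was the smallest of 6 SLA-3 probe sets, all with positive fitted differences, up to 0.94 ± 0.90, and none with the same sign in all 3 pigs. The brightest probe sets of SLA-1 and SLA-3 spanned 0.61 and 0.57 over the 6 arrays, below the median of 1.03 for all genes. SLA-2 had 6.54, 5.70 and 7.00 against 7.32, 5.73 and 7.12, where the pigs differed more than the populations. The non-classical chain gene SLA-6 had 7.48, 8.58 and 7.29 against 7.27, 7.91 and 7.59. SLA-7 had 5.88, 5.98 and 5.67 against 6.80, 5.48 and 5.53. SLA-8 had 9.17, 8.80 and 8.48 against 7.97, 8.31 and 9.29, higher in CD163high cells of pigs 1 and 2 and lower in pig 3. The groups overlapped for all of these genes.

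SLA-4 and SLA-11 are pseudogenes in the RefSeq annotation of Sscrofa11.1. SLA-4 had 4.20, 3.98 and 4.95 in CD163high and 5.05, 4.08 and 4.37 in CD163low cells. SLA-11 had 8.41, 8.83 and 8.44 against 8.61, 8.24 and 9.27, a signal far above the mean of the background controls on every array, though on CD163high of pig 3 the brightest control reached 8.38. SLA-5 had 4.66, 4.52 and 6.28 against 5.22, 4.36 and 5.43, and the 2 arrays of each pig lay together, apart from those of the other pigs. Such a separation of all 3 pigs was seen in 4 of the 32 class I heavy chain probe sets (12.5%) and in 9.01% of all probe sets. It was seen in 1 of the 44 proteasome genes, against 8.74% of all genes.

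The light chain was the steadiest of the class I genes after SLA-1 and SLA-3. B2M had 11.79, 11.49 and 11.17 in CD163high and 11.19, 11.55 and 11.42 in CD163low cells, with a log2 difference of 0.099 ± 0.22. RefSeq lists 2 genes named B2M in the pig, and which of them the single probe set measures was not tested. The transporter genes had lower means in CD163high cells but differed between pigs. TAP1 had 8.39, 8.33 and 9.42 in CD163high and 10.35, 8.15 and 9.26 in CD163low cells, and its log2 difference of -0.54 ± 0.60 came from pig 1, since without that pig it was 0.17. TAP2 had 5.32, 5.45 and 5.50 against 6.04, 5.30 and 5.83, a difference of -0.30 ± 0.23. TAPBP, the gene of tapasin, which holds class I molecules at the transporter, had 7.70, 7.78 and 7.55 against 8.15, 7.45 and 8.20, a difference of -0.26 ± 0.25. PDIA3, the thiol oxidoreductase of the loading complex, had 10.22, 10.39 and 7.98 against 8.11, 9.70 and 8.59. Its pattern over the arrays had the form of the proteasome genes, with differences of 2.11, 0.69 and -0.62 in pigs 1, 2 and 3. B2M and the TAP, TAPBP and PDIA3 genes all had overlapping groups.

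TAP2, PSMB8, TAP1 and PSMB9 lie next to each other in this order in RefSeq, inside the MHC class II region. Their brightest probe sets had fitted log2 differences of -0.30, 0.58, -0.54 and 0.13 in that order, none of which passed. In pig 2 all were positive, at 0.14, 0.67, 0.18 and 0.74. The signs were mixed in pig 1 (-0.72, 1.15, -1.96 and 0.37) and in pig 3 (-0.33, -0.092, 0.15 and -0.73).

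Probe sets of the same gene often disagreed. Of the 33 members with over 1 probe set, 18 had probe sets of both signs, and among the 22 with over 1 probe set above the background mean on every array 9 did. Those with both signs were SLA-1, SLA-2, SLA-6, SLA-7, SLA-8, SLA-11, TAP1, TAP2, TAPBP, PSMB8, PSMB5, PSMB3, PSMA5, PSMA6, PSMC4, PSME4, PSMG1 and PSMG2. PSMB8 had 8 probe sets, 6 of them positive and 2 negative. One of these, dimmer than the brightest, had 9.24, 9.34 and 8.80 in CD163high and 8.69, 8.69 and 8.08 in CD163low cells, with no overlap (log2 difference 0.64 ± 0.26, limma adjusted p = 1). Another had differences of 2.82, 0.19 and -2.82 in the 3 pigs. All 4 probe sets of PSMB9 had positive fitted differences, from 0.13 to 1.20, and none had an unadjusted limma p under 0.05. A second PSMB3 probe set had the smallest p of all 130, in the negative direction, with 4.61, 4.72 and 4.96 in CD163high and 5.78, 6.08 and 5.74 in CD163low cells (log2 difference -1.10 ± 0.19, limma adjusted p = 1), against 0.093 for the brightest PSMB3 probe set. TAP1 had 1 positive and 3 negative probe sets, and one of them had 7.21, 7.70 and 4.09 in CD163high and 4.54, 7.97 and 8.78 in CD163low cells, a pattern unlike that of the brightest. The annotation does not say which exon or strand a probe set covers, and the source of these differences was not tested.

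**Figure D4:**
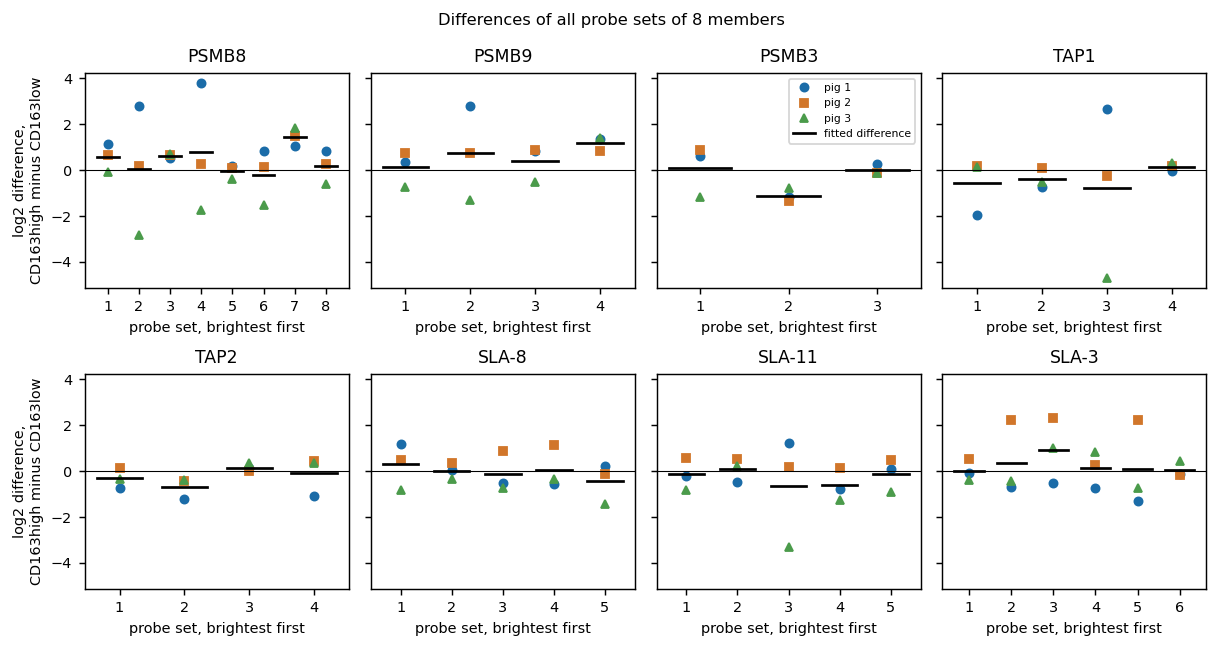
Log2 difference between CD163high and CD163low monocytes of a pig (y axes) for every probe set of 8 members, ordered from brightest to dimmest (x axes), with black bars for the fitted difference. All 4 PSMB9 bars lie above 0, whereas PSMB8, PSMB3, TAP1, TAP2, SLA-8 and SLA-11 have bars on both sides.

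Other genes of the route were mostly higher in CD163high cells of pigs 1 and 2 and lower in those of pig 3, apart from the regulators. Of 52 listed symbols for peptide trimming, proteasome partners, loading and quality control, retrotranslocation and regulators, 35 had a probe set. Their median log2 difference was 0.20, with medians of 0.75, 0.31 and -0.31 in pigs 1, 2 and 3. The 8 regulators among them had medians of -0.077, 0.28 and 0.11. None passed over the array. In all 3 pigs 4 of the 35 had higher and 0 had lower values, where 10.5% and 12.5% of all genes did. Of the 35, 1 positive and 0 negative differences had an unadjusted limma p under 0.05, where 1.84% and 1.43% of all genes did, so the shares with higher values and with positive differences were near those of all genes. The gene with the positive difference was NFE2L1, a transcription factor known to drive proteasome subunit genes, with 6.62, 6.37 and 5.69 in CD163high and 5.13, 5.34 and 5.48 in CD163low cells (log2 difference 0.91 ± 0.28, limma adjusted p = 1). The peptidase genes LAP3 and BLMH had 0.92 ± 0.40 and 1.07 ± 0.51, and UCHL5, a deubiquitinase of the cap, had 1.54 ± 0.87 with pig 2 in the opposite direction. NLRC5, the transactivator of class I genes, had -0.45 ± 0.31.

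Genes listed as markers of other cells gave signal in both populations, and class I and immunoproteasome genes are active in lymphocytes as well. The 8 measured monocyte markers had a mean log2 signal of 8.45 to 9.03 in CD163high and 8.22 to 8.77 in CD163low cells. CD163 and CD14, on which the cells were sorted, are among these 8. The mean of the 8 markers differed by 0.77, 0.56 and -0.32 in pigs 1, 2 and 3, with the signs of the proteasome medians. The 8 measured T cell markers had 4.63 to 7.22 against 5.27 to 7.16, highest on both arrays of pig 2, the 8 NK cell markers 5.03 to 6.28 against 5.56 to 6.50, and the 5 B cell markers 5.53 to 7.03 against 5.99 to 7.39. The 7 neutrophil markers had 5.65 to 6.09 against 6.55 to 7.19, lower in CD163high cells of every pig. Of these, CSF3R, CXCR2, S100A8, S100A9 and S100A12 were each lower in CD163high cells of every pig. LTF and MPO had both signs. LTF lay under the background mean on all arrays and MPO on 4. Whether the signal of these 7 genes came from neutrophils or from monocytes was not tested. Dendritic cell markers had 5.05 to 5.30 against 5.04 to 5.77 and platelet markers 4.15 to 4.32 against 4.53 to 4.64. Erythroid markers had 3.24 to 8.30 against 2.99 to 8.12, with both arrays of pig 2 highest. Besides the neutrophil markers, those of NK cells (-0.39, -0.22 and -0.53 in pigs 1, 2 and 3), B cells (-0.41, -0.35 and -0.69) and platelets (-0.42, -0.21 and -0.43) had lower means in CD163high cells of every pig. Single markers differed: BANK1, a B cell marker, was higher in CD163high cells of every pig, by 1.13, 0.75 and 0.33. The B cell marker PAX5, the platelet markers GP9 and GP1BA, and the NK cell markers NCR1, KLRK1, NKG7, PRF1 and GZMB had both signs. The part of other cells and of the monocyte markers in the values of the members was not tested.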

How the data were processed

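RNA of 3 arrays per population (500 ng amplified, 5.5 µg of cDNA labelled, per the labels) was measured as probe-set intensity. The deposited intensity table was made with RMA, and limma was also named, per the submitters' processing notes; the sources used here give no version, probe-set definition or genome build. The background correction in RMA can shrink differences between dim probe sets, and its values compare a probe set only with itself. Of 47845 rows, 186 already held log2 values and the log2 of the other 47659 deposited intensity values was taken. Tests left out 123 control probe sets. Of the 47722 others, 26426 carried 1 symbol in the annotation, 0 more than 1, and 21296 no symbol; all 59 member symbols are current in RefSeq (Sscrofa11.1). The brightest probe set, by the mean over 6 arrays, stood for a gene.

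The test was limma 3.58.1 in R 4.3.3 (lmFit and eBayes, two-sided, without a block), adjusted by Benjamini-Hochberg over 47722 probe sets, with a threshold of 0.05. The functions were tested on simulated data. The members and lists were chosen with earlier results of these data known. All members are named. Values on every array are given for the class I chains and loading genes, PSMB5 to PSMB9, PSME1, PSME2, the 3 members with the smallest p in each other role group, and members with an unadjusted p under 0.05 or groups without overlap; members with probe sets of both signs and the 4 other pathway genes with the smallest p are named. PSMC2, PSMG1, PSMD14, PSMB11, NLRC5 and the single probe sets of PSMB8, PSMB3, PSME1, PSMD7 and TAP1 were described further after their values were seen, as was the separation of the pigs.

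Pairing by pig rests on the labels. Deviations from the group means correlated at -0.20, 0.67 and 0.26 between the 2 arrays of pigs 1, 2 and 3. Between arrays of different pigs the correlations ran from -0.80 to 0.60. The highest of these, between CD163low of pig 1 and CD163high of pig 3, was above those within pigs 1 and 3. The planned ratio of inducible to constitutive subunits was formed for PSMB9 and PSMB6 only, since PSMB10 had no probe set of that symbol and PSMB5 lay under background. Alternatives tried were a fixed and a random block for the pig, a trended robust variance, weights per array, leaving out the dimmest 0.3333 or 0.5 of probe sets, quantile normalization, median centring, the mean of all probe sets, the background signal as a covariate, the 4 arrays of lowest background, other thresholds and omission of each pig and array.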

Additional observations from a re-analysis of the deposited data

How the results depend on the processing

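No probe set passed over the whole array in any of the alternatives run, an adjusted p of 0.1 included; 1235 had an unadjusted limma p under 0.05. With the pig as a replicate block the count was 0 as well (1917 with an unadjusted p under 0.05), and the member median stayed at 0.33. In that fit 4 members in place of 3 had an unadjusted limma p under 0.05 (PSMB4 was added), where 4.02% of all probe sets did. By pig, the ratio of PSMB9 to PSMB6 kept its difference of -0.71 (exact sign-flip permutation p = 0.25, the smallest possible with 3 pigs). The count of members with an unadjusted limma p under 0.05 was 0 with trended robust variance, where 2.35% of all probe sets reached it. It was 1 with the mean of all probe sets (2.66% of all genes), and 1 at an unadjusted limma p of 0.01. With array weights it was 24 (18.6% of all probe sets), with the background covariate 19 (9.89%). Over the 4 arrays of lowest background it was 13 (3.73%). Omitting single pigs or arrays gave 0 to 19. The member median was positive in every alternative, from 0.077 to 0.72. The ratio of PSMB9 to PSMB6 was negative in all alternatives run for it, and was not run with other variance models, weights, dim filters, the covariate or the random block, which do not apply to a permutation of arrays. PSMB5 was removed by both filters on dim probe sets and PSMG2 by the stricter.

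Of the 39 members given on every array 21 kept their sign throughout. With array weights the sign turned for SLA-3 (-0.072), SLA-5 (-0.53), SLA-7 (0.25), SLA-8 (-0.14), PSMB5 (-0.056), PSMA7 (-0.013) and PSME4 (0.24). With quantile normalization it turned for SLA-3 (-0.019) and B2M (-0.15). With the mean of all probe sets it turned for SLA-1 (-0.28), SLA-2 (0.12), SLA-6 (-0.17), SLA-7 (0.094), SLA-8 (-0.040) and PSMB5 (-0.052). With the background covariate it turned for SLA-5 (-0.16) and PSME4 (0.0071), and over the 4 arrays of lowest background for SLA-5 (-0.31), SLA-7 (0.42) and PSME4 (0.19). On omitting single pigs or arrays the log2 difference went from -0.073 to 0.35 for SLA-1, -0.81 to 0.042 for SLA-2, -0.24 to 0.23 for SLA-3, -0.47 to 0.24 for SLA-4, -0.41 to 0.50 for SLA-5, -0.20 to 0.44 for SLA-6, -0.39 to 0.33 for SLA-7, -0.17 to 0.84 for SLA-8, -0.51 to 0.19 for SLA-11, -0.15 to 0.27 for B2M, -1.09 to 0.17 for TAP1, -0.21 to 0.72 for PSMB9, -0.17 to 0.35 for PSMB5, -0.26 to 1.28 for PSMC6, -0.41 to 1.49 for PSME3, -0.83 to 0.34 for PSME4 and -0.47 to 0.18 for PSMF1. The cause of these changes was not tested. Signals near the background controls limit PSMB5, PSMA8 and PSMG2.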
